A study of Mus musculus with 16 samples.

Results

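Acyl-CoA thioesterases split fatty acyl-CoA esters into a free fatty acid and coenzyme A, and so set how much activated fatty acid is at hand for oxidation, storage or signalling. The genes described here are the 10 mouse thioesterases Acot1, Acot2, Acot3, Acot4, Acot5, Acot6, Acot7, Acot8, Acot9 and Acot13. They were chosen by name as members of the Acot family, with earlier results of these data known, and are 10 of the 23420 genes with counts. As background, Acot1 to Acot6 encode the closely related type I enzymes, with an alpha/beta hydrolase fold. Among these, Acot1 is cytosolic, Acot2 mitochondrial, and the enzymes of Acot3, Acot4, Acot5 and Acot6 are peroxisomal in mouse. Acot7, Acot8, Acot9 and Acot13 encode type II enzymes, with an unrelated hot dog fold. Several type I genes are textbook targets of the fatty acid receptor PPAR-alpha in rodent liver.

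The series measured polyadenylated RNA in 8 male C57BL/6 mice, 4 labelled as adipocyte-specific Trib1 knockouts (mice KO-1137 and KO-1139 with mice KO-1151 and KO-1152) and 4 labelled wild-type (mice WT-1135 and WT-1136 with mice WT-1138 and WT-1153). Trib1 encodes tribbles 1, a pseudokinase that brings substrates such as C/EBP-alpha to a ubiquitin ligase. Each mouse gave 1 library of subcutaneous adipocytes freed with collagenase and 1 of liver, so that 16 libraries form 4 groups of 4. The age was 70 days in mice WT-1153, KO-1151 and KO-1152, and 76 days in the others. Neither the promoter that drove the recombinase nor the deleted exons is given in the sources used.

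Total counts were 28560887 to 53716669 per library. Levels are given as CPM (counts per 1000000 counts of the library), scaled by TMM factors within a tissue. Trib1 itself was at 1071 to 1408 CPM in KO-labelled adipocytes and at 752 to 1293 CPM in WT adipocytes, a log2 difference of 0.28 ± 0.18 (SE; adjusted p = 0.241, edgeR). In liver, which the labels do not name as a target of the knockout, Trib1 averaged 64.9 ± 16.3 CPM in KO-labelled and 59.8 ± 8.89 CPM in WT mice (SD, n = 4 each). Trib1 counts therefore did not fall with the label, and since the deleted part is not known, gene counts do not show whether it was deleted. The groups are called KO-labelled for this reason, and every direction below rests on the labels. The fat cell libraries held the defining adipocyte transcript Adipoq (adiponectin) at 4469 to 5028 CPM in KO-labelled and 2735 to 4093 CPM in WT adipocytes. Alb (albumin), which defines hepatocytes, was at 69387 to 92708 CPM in KO-labelled and 65578 to 87214 CPM in WT liver.

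Acot1 to Acot6 lie side by side on 1 strand of chromosome 12 (GRCm38, chr12:83987861-84111349, 123.5 kb), in the order Acot2, Acot1, Acot4, Acot3, Acot5, Acot6. Acot7 is on chromosome 4 (chr4:152178134-152271855), Acot8 on chromosome 2 (chr2:164792765-164804882), Acot9 on the X chromosome (chrX:155262443-155297654) and Acot13 on chromosome 13 (chr13:24817948-24831540). Acot8 and Acot13 are on the minus strand and the others on the plus strand. Related genes share sequence. Of the 50-base stretches in its exons, 27.7% of Acot2, 22.1% of Acot5, 19.2% of Acot1, 15.2% of Acot9 and 8.17% of Acot3 were also found at another locus. The main partners were Acot1 for Acot2 and the reverse, Acot5 for Acot3 and the reverse, and Acot10 for Acot9. The share was 4.83% for Acot4, 3.79% for Acot6 and 0 for Acot7, Acot8 and Acot13. How reads that fit several genes were counted is not stated, so levels of those 5 genes are less certain where the partner is abundant. Acot3 and Acot4 also overlap the gene models 4732463B04Rik and Gm49366, and Acot8 overlaps Snx21; the strand setting is not given, so reads from overlapping genes cannot be told apart.

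The upstream sequences of the cluster genes that rose together in adipocytes are shown because these genes moved together in the comparison of adipocytes. Each runs 5′ to 3′ on the plus strand of GRCm38.p6 (RefSeq), from 250 bases before to 50 bases after a gene start. RefSeq windows matched 8 of the 10 genes; none was used for Acot6 or Acot13. Capitals mark a match, on either strand, to 2 copies of AGGTCA spaced by 1 base with at most 2 mismatches (the direct repeat bound by PPAR with RXR), to TTGCNNAA (a short C/EBP word) or to TTCNNNGAA (a STAT word).
Acot2 (chr12:83987611-83987910): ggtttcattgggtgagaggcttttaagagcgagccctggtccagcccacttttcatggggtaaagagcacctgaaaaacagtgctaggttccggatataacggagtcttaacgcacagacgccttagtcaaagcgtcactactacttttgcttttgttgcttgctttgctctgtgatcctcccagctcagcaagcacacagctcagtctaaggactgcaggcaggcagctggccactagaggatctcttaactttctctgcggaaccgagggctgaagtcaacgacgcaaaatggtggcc
Acot1 (chr12:84009252-84009551): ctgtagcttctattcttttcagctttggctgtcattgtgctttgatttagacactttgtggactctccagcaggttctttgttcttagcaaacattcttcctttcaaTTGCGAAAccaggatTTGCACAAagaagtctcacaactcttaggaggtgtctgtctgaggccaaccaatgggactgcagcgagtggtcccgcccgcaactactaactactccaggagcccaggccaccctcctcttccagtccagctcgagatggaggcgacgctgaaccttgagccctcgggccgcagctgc
Acot4 (chr12:84038129-84038428): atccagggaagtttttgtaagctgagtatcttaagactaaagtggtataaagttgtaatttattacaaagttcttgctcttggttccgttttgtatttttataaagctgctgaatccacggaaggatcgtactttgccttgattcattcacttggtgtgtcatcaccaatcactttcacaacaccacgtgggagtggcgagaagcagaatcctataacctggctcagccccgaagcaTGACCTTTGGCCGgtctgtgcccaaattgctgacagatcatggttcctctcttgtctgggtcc
Acot3 (chr12:84051894-84052193): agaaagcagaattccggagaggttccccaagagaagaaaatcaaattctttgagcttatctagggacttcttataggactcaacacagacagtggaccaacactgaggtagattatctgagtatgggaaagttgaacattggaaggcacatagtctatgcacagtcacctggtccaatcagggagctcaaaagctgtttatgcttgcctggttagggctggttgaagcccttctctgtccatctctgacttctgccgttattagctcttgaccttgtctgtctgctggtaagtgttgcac
Acot5 (chr12:84069074-84069373): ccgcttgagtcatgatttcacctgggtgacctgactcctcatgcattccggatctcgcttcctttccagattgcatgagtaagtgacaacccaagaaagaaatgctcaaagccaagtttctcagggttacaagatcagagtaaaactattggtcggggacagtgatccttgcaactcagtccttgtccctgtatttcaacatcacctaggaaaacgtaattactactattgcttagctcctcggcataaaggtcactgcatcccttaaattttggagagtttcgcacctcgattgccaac

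Acot1 held 2 C/EBP words, TTGCGAAA and TTGCACAA, 143 and 128 bases before the start. Acot4 held 1 direct repeat match on the minus strand, TGACCTTTGGCCG as read on the plus strand, with 2 mismatches, beginning 13 bases before the start. The windows of Acot2, Acot3, Acot5, Acot7, Acot8 and Acot9 held none of the 3 words. The Acot7 window (chr4:152185358-152185657) lies within the gene's span given above, so the sequence at its outermost start was not searched. Among 32851 mouse windows of the same length, 10.8% held the C/EBP word, 3.86% the direct repeat and 8.30% the STAT word. These matches describe letters only.

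The first comparison asked how the adipocyte transcriptome differs with the Trib1 label. All 6 genes of the chromosome 12 cluster and Acot9 were higher in KO-labelled adipocytes, no member was lower, and Acot7, Acot8 and Acot13 did not pass the test. The 7 calls among 10 members stand against 35.2% of 13795 tested genes called in either direction and 18.0% called higher (edgeR's quasi-likelihood test, Benjamini-Hochberg adjusted p under 0.05). Acot3 and Acot5 entered the test only through the KO-labelled group, where they were high, so their calls add nothing to that comparison. Without them, 5 of 8 members were called, all higher. The median log2 difference was then 1.58 over the remaining 4 cluster genes and 0.68 over the 8 members, with -0.01 over all tested genes. Of those 4 cluster genes, Acot1, Acot4 and Acot6 had log2 differences above 1, where 3.46% of tested genes were called higher by that much. In these bulk libraries, a change in the number of cells of a type and a change in RNA per cell cannot be told apart.

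**Figure D1:**
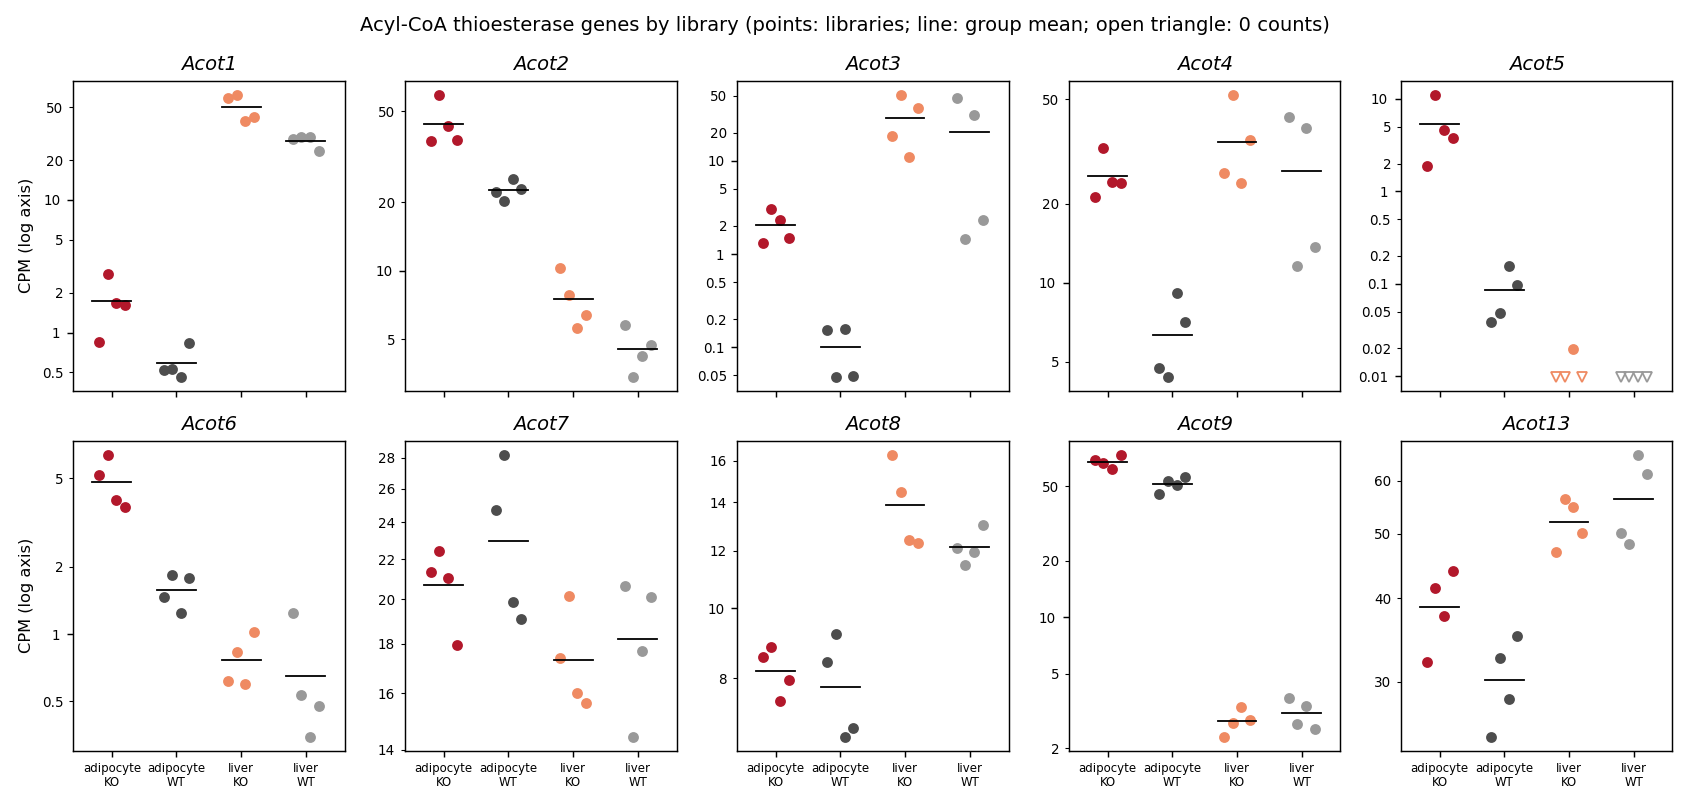
CPM of each thioesterase gene on a log axis, with 1 point per library, ordered by mouse number within a group, a line at the group mean where all 4 libraries have counts, and open triangles for libraries at 0. Each tissue has its own TMM scale, KO and WT are the labels, and the 4 KO-labelled adipocyte libraries lie above all 4 WT adipocyte libraries for Acot1 to Acot6 and Acot9.

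Acot5, whose peroxisomal enzyme prefers medium-chain acyl-CoAs, had the largest rise. It was at 1.88, 10.99, 4.61 and 3.75 CPM in KO-labelled adipocytes (in the order KO-1137, KO-1139, KO-1151, KO-1152), against 0.0387, 0.0484, 0.155 and 0.0975 CPM in WT adipocytes (in the order WT-1135, WT-1136, WT-1138, WT-1153). Every KO-labelled library was above every WT library, and KO-1139 was the highest. The WT values rest on 2 to 6 counts per library and 14 in all, so Acot5 passed the low-count filter only through the KO-labelled group, which had 911 counts. The fitted log2 difference was 5.97 ± 0.67 (SE; adjusted p = 0.000345, edgeR), and 5.32 without KO-1139. The summed counts give a 60.0-fold ratio, with an exact interval of 28.9 to 150 (95%, on halved counts because low counts were mostly even) that covers counting error only.

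Acot3, the peroxisomal long-chain thioesterase next to Acot5, followed the same pattern. It was at 1.33, 3.03, 2.35 and 1.5 CPM in KO-labelled adipocytes (same mouse order), against 0.155, 0.0484, 0.155 and 0.0487 CPM in WT adipocytes. The groups did not overlap, but WT adipocytes had only 18 counts in all against 342 in KO-labelled adipocytes, so this gene too passed the filter through 1 group. The log2 difference was 4.28 ± 0.47 (adjusted p = 0.000293, edgeR), and the ratio of summed counts was 17.5 (interval 9.01 to 39.0).

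Acot4, the peroxisomal enzyme known in mouse to act on succinyl-CoA and dicarboxylic acyl-CoAs, was at 21.3, 32.6, 24.3 and 24.0 CPM in KO-labelled adipocytes and at 4.74, 4.38, 9.16 and 7.09 CPM in WT adipocytes. The lowest KO-labelled library was well above the highest WT library. The means were 25.5 ± 4.89 and 6.34 ± 2.23 CPM (SD, n = 4 each), a ratio of 4.03 and a log2 difference of 2.01 ± 0.24 (adjusted p = 0.000468, edgeR). Acot6, the last gene of the cluster, was at 5.16, 6.35, 4.01 and 3.69 CPM in KO-labelled adipocytes and at 1.47, 1.84, 1.24 and 1.78 CPM in WT adipocytes. Again no libraries overlapped, and the log2 difference was 1.60 ± 0.23 (adjusted p = 0.00114, edgeR).

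Acot1 and Acot2 are near copies whose enzymes work in the cytosol and in mitochondria. Acot2 was the most abundant cluster gene in fat cells, at 36.9, 59.0, 43.3 and 37.6 CPM in KO-labelled and 22.1, 20.1, 25.3 and 22.9 CPM in WT adipocytes. Its log2 difference was 0.97 ± 0.15 (adjusted p = 0.0018, edgeR), with no overlap between groups. Acot1 was scarce, at 0.848, 2.76, 1.66 and 1.62 CPM in KO-labelled and 0.522, 0.533, 0.466 and 0.8285 CPM in WT adipocytes. The groups nearly touched, at 0.848 CPM in KO-1137 and 0.8285 CPM in WT-1153, and the log2 difference was 1.55 ± 0.38 (adjusted p = 0.0116, edgeR). In the mice of 76 days alone it was 1.83, and the adjusted p was 0.0639. Acot2 counts were far higher than Acot1 counts (7345 against 287 in KO-labelled and 3892 against 101 in WT adipocytes), so part of the Acot1 counts could come from shared sequence, which was not tested.

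Outside the cluster, Acot9, a mitochondrial thioesterase, was at 69.5, 66.4, 61.5 and 73.5 CPM in KO-labelled adipocytes and at 45.4, 53.5, 51.0 and 56.2 CPM in WT adipocytes. This was the only rise outside the cluster that passed the test, at a log2 difference of 0.39 ± 0.09 (adjusted p = 0.00768, edgeR). With scaling by library totals it was 0.21 (adjusted p = 0.0797), and in the mice of 76 days alone 0.44 (adjusted p = 0.056). Acot13, which encodes the small thioesterase also known as Them2, was at 32.1, 41.4, 37.7 and 44.0 CPM in KO-labelled and 24.9, 32.6, 28.3 and 35.1 CPM in WT adipocytes. These ranges overlap, and the log2 difference of 0.36 ± 0.13 missed the threshold (adjusted p = 0.0555, edgeR), though it passed without KO-1137 (adjusted p = 0.0216) or without WT-1153 (adjusted p = 0.0375). Acot7, a cytosolic thioesterase best known from brain, averaged 20.7 ± 1.92 CPM in KO-labelled and 23.0 ± 4.28 CPM in WT adipocytes, with a log2 difference of -0.15 ± 0.14 (adjusted p = 0.412, edgeR). Acot8, a peroxisomal thioesterase of broad specificity, averaged 8.20 ± 0.620 CPM in KO-labelled and 7.78 ± 1.25 CPM in WT adipocytes (log2 difference 0.08 ± 0.14, adjusted p = 0.699, edgeR).

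**Figure D2:**
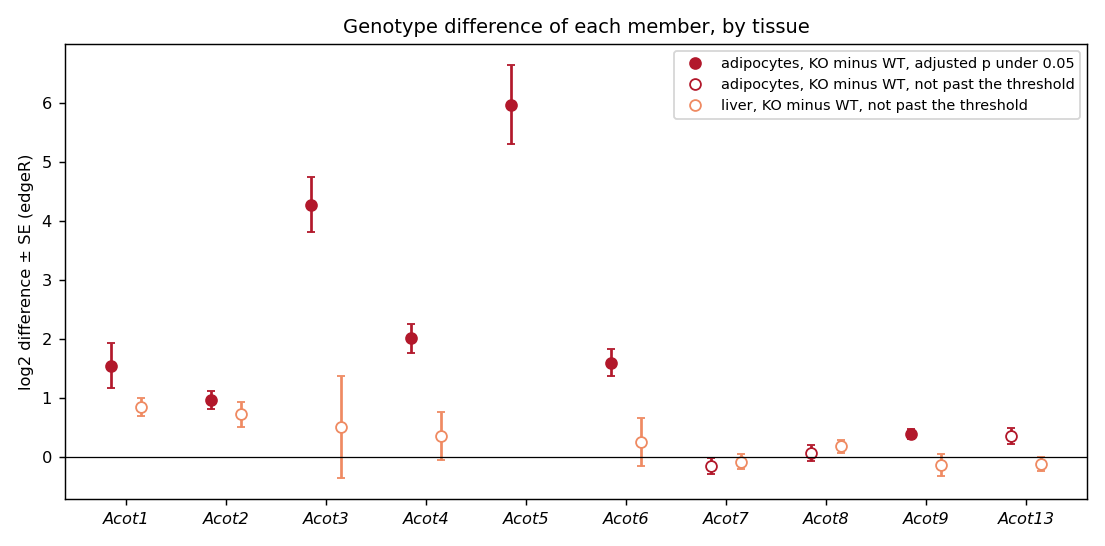
Fitted log2 difference, KO-labelled minus WT, with its SE for each gene in adipocytes and in liver (edgeR, n = 4 libraries per group). Filled points pass an adjusted p of 0.05: 7 genes in adipocytes, from 0.39 for Acot9 to 5.97 for Acot5, and none in liver, where Acot5 was not tested.

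The groups did not overlap for 7 of 10 members, or for 5 of 8 without Acot3 and Acot5, and for 33.9% of tested genes (18.7% with KO-labelled above WT). Summed over the members, KO-labelled adipocytes had 219 ± 24.1 CPM and WT adipocytes 144 ± 8.40 CPM, not corrected for gene length. The cluster supplied 37.8 ± 5.46% of that sum in KO-labelled and 21.8 ± 3.16% in WT adipocytes. With CPM taken per kilobase of exon, the cluster's share was lower. It averaged 23.1% (19.1 to 29.4%) in KO-labelled and 13.2% (10.8 to 15.5%) in WT adipocytes. The 2 ages each showed the cluster genes higher in KO-labelled adipocytes, by ratios of means. At 70 days, with 2 KO-labelled mice and 1 WT mouse, the log2 ratios were 0.82 for Acot2, 0.98 for Acot1, 1.11 for Acot6, 1.77 for Acot4, 5.30 for Acot3 and 5.42 for Acot5. At 76 days, with 2 KO-labelled and 3 WT mice, they were 1.09 for Acot2, 1.83 for Acot1, 1.92 for Acot6, 2.14 for Acot4, 4.19 for Acot3 and 6.32 for Acot5.

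Markers of other cells moved with the label in the adipocyte libraries. Endothelial markers (5 of 5 lower) summed to 142 to 302 CPM in KO-labelled and 511 to 1424 CPM in WT adipocytes. Fibroblast and progenitor markers (5 of 6 lower) summed to 664 to 1191 CPM and 1450 to 1597 CPM in these groups, and mural markers (5 of 5 lower) to 93.2 to 152 CPM and 226 to 302 CPM. Adipocyte markers (1 of 8 higher, none lower) summed to 58315 to 67896 CPM in KO-labelled and 40661 to 63830 CPM in WT adipocytes. Macrophage markers, none of 5 tested called, summed to 33.3 to 201 CPM in KO-labelled and 71.1 to 172 CPM in WT adipocytes, lymphocyte markers (1 of 5 lower) to 4.01 to 15.6 CPM and 9.16 to 22.5 CPM, and skeletal muscle markers (1 of 2 tested lower) to 6.69 to 7.67 CPM and 11.1 to 32.2 CPM. Hepatocyte markers summed to 21.8 to 35.3 CPM in KO-labelled and 46.0 to 125 CPM in WT adipocytes, with Alb at 18.5 to 29.8 CPM and 43.9 to 113 CPM. Of the 3 hepatocyte markers tested, 1 was higher and 1, Alb, was lower. Brown or beige adipocyte markers (2 of 5 higher, 1 lower) summed to 104 to 193 CPM in KO-labelled and 135 to 213 CPM in WT adipocytes. Of these lists' markers, Clec4f, which marks liver macrophages, was at 0 in every adipocyte library. What part these cells have in the thioesterase differences was not tested.

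A score of the endothelial, fibroblast and mural markers (mean log2 CPM) was 3.93 to 5.05 in KO-labelled and 5.39 to 6.46 in WT adipocytes, without overlap, so label and score can hardly be separated. With this score as a covariate, 0 members and 338 genes in all passed (edgeR). An unadjusted p under 0.05 was found for 5 members (edgeR). The count over all genes is not given here, so those 5 have no share to be read against. No other tool was run with this covariate. The log2 difference was then 4.90 for Acot5 (adjusted p = 0.119, edgeR), 4.29 for Acot3 (0.0552), 1.75 for Acot6 (0.0964), 1.66 for Acot4 (0.129), 0.90 for Acot2 (0.23), 0.57 for Acot1 (0.786), 0.27 for Acot9 (0.559) and -0.19 for Acot13 (0.723).

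The genes around the cluster offer a local comparison. Of the 20 other genes within 500 kb, 19 were tested in adipocytes, 4 were higher in KO-labelled adipocytes and none lower, with a median log2 difference of 0.12. This is near the 18.0% of all tested genes that were higher. The 3 with the smallest p were Coq6, a coenzyme Q synthesis enzyme (0.72 ± 0.09), Ptgr2, a prostaglandin reductase (0.70 ± 0.09), and Dcaf4, a ubiquitin ligase adaptor (0.57 ± 0.09). None of these lay next to the cluster: Ptgr2, the nearest, was 174 kb beyond Acot6. The genes at its edges had smaller fitted differences, at 0.07 ± 0.17 for Riox1 on the Acot2 side, and at -0.10 ± 0.11 for Dnal1, -0.13 ± 0.43 for Pnma1 and -0.31 ± 0.13 for Elmsan1 on the Acot6 side, and none of these passed the test.

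**Figure D3:**
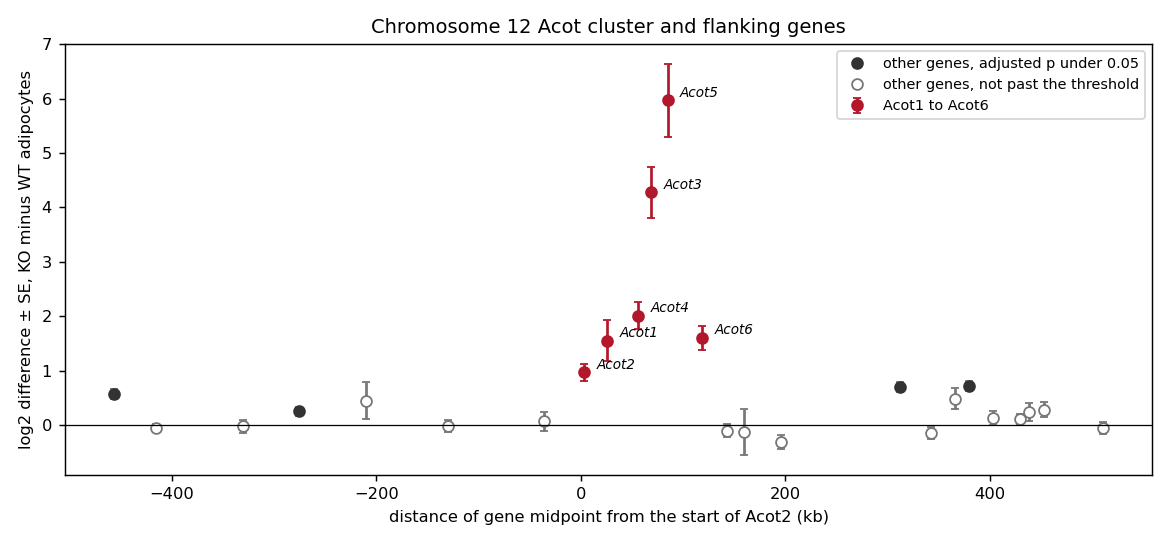
Log2 difference (KO-labelled minus WT adipocytes, with SE, edgeR) against the distance of each gene's midpoint from the start of Acot2, for the 6 cluster genes and 19 tested genes within 500 kb of the cluster. Acot3 and Acot5, which passed the low-count filter only through the KO-labelled group, stand at 4.28 and 5.97. The other 4 cluster genes run from 0.97 to 2.01, and the flanking genes reach at most 0.72.

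Other steps of fatty acid handling were read from lists drawn up with earlier results of these data known. Their counts stand against 18.0% of all tested genes called higher, 35.2% called in either direction and a median log2 difference of -0.01. Among 22 peroxisomal oxidation and transport genes, 15 rose in KO-labelled adipocytes and none fell (median log2 difference 0.54). Examples were Phyh, the phytanoyl-CoA hydroxylase (0.88 ± 0.11), Hsd17b4, the bifunctional enzyme of the peroxisomal cycle (0.80 ± 0.11), and Ech1, a dienoyl-CoA isomerase (0.59 ± 0.08). Among 19 mitochondrial oxidation genes, 10 rose and 1 fell (median 0.35), with rises for the acyl-CoA dehydrogenases Acadvl (0.92 ± 0.10) and Acadl (0.78 ± 0.14) and for Etfdh (0.51 ± 0.11), which passes their electrons on. Of the 14 tested acyl-CoA synthetases and transporters, which make the substrate that thioesterases split, 6 rose and 4 fell (median 0.26). Acsl5 rose (0.68 ± 0.08), while the transporter and very-long-chain synthetase Slc27a2 (-3.32 ± 0.40) and the medium-chain synthetase Acsm3 (-2.71 ± 0.37) fell.

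Of 12 tested genes on the list of PPAR-alpha and its known liver targets, 3 rose and 4 fell in KO-labelled adipocytes, with a median log2 difference of 0.00. Vnn1, a pantetheinase, rose by 1.73 ± 0.36 on the log2 scale, while Cyp4a32, a fatty acid hydroxylase, fell by 1.72. Of 5 other tested thioesterases, 1 rose, Them4, at 13.4 ± 2.19 CPM in KO-labelled and 8.51 ± 0.813 CPM in WT adipocytes (log2 difference 0.66 ± 0.14). The palmitoyl-protein thioesterases Ppt1 (0.14 ± 0.09) and Ppt2 (-0.16 ± 0.08) did not pass. Among 16 genes known to be sex-biased in liver, 5 could be tested in adipocytes. Cyp2b9, a cytochrome P450 gene, was at 4.88 to 9.74 CPM in KO-labelled and 0 to 0.0487 CPM in WT adipocytes, and so entered the test only through the group where it was high. The others included Mup3, a major urinary protein gene, at 89.6 ± 10.5 CPM in KO-labelled and 7.43 ± 3.08 CPM in WT adipocytes, and the complement gene C6, at 83.4 ± 30.2 CPM and 5.68 ± 1.497 CPM. That list, like the other lists and the Acot members, was drawn up with earlier results of these data known. No count or median over the sex-biased list is given.

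In liver, 0 of 9 tested members passed (edgeR), where 0.0226% of 13288 tested genes did. An unadjusted p under 0.05 was found for 2 members, Acot1 and Acot2, and for 1146 of the 13288 tested genes (edgeR). DESeq2 called 1, Acot1, in a fit that called more genes in all than edgeR did, as given in the closing section. Acot1 was at 59.2, 61.8, 39.6 and 42.1 CPM in KO-labelled liver and at 28.9, 29.8, 30.1 and 23.4 CPM in WT liver. All 4 KO-labelled livers were above all 4 WT livers, as in 2.36% of tested genes (4.66% did not overlap in either direction), and the ratio of means was 1.81. The log2 difference was 0.85 ± 0.15 with an adjusted p of 0.211 (edgeR), rank 11 of 13288 by p. The adjusted p was 0.000279 with DESeq2 and 0.00327 in edgeR with age as a covariate. How many genes passed in all with the age covariate is not given here, so that call has no share to be read against. The log2 ratio of means was 0.80 at 70 days and 1.03 at 76 days.

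Acot2 was at 10.3, 7.78, 5.62 and 6.40 CPM in KO-labelled liver and at 5.75, 3.42, 4.19 and 4.69 CPM in WT liver, a log2 difference of 0.73 ± 0.21 (adjusted p = 0.429, edgeR). The groups overlapped through KO-1151 and WT-1135 only. In liver, Acot1 counts were far higher than Acot2 counts (7861 against 1155 in KO-labelled and 3931 against 646 in WT). Part of the Acot2 counts could come from shared sequence, which was not tested. The other tested members had log2 differences between -0.13 (Acot9) and 0.51 (Acot3), with adjusted p from 0.671 to 0.891 (edgeR). Acot5 was not tested in liver, with 1 count in KO-labelled and 0 in WT livers.

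Acot3 and Acot4 varied between livers of 1 label more than between the labels' means. Acot3 was at 18.4, 50.7, 10.98 and 36.5 CPM in KO-labelled liver and at 47.0, 1.46, 31.1 and 2.32 CPM in WT liver, so the highest WT liver had 32.2 times the lowest. Acot4 was at 26.2, 51.9, 24.0 and 34.9 CPM in KO-labelled liver and at 42.7, 11.6, 38.8 and 13.7 CPM in WT liver, a 3.69-fold range within WT. The same 4 livers were the highest for both genes, KO-1139, KO-1152, WT-1135 and WT-1138, and WT-1136 and WT-1153 were the lowest. The log2 differences were 0.51 ± 0.87 for Acot3 (adjusted p = 0.891) and 0.36 ± 0.41 for Acot4 (adjusted p = 0.823, edgeR); without WT-1135 that of Acot3 was 1.33, still short of the threshold.

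**Figure D4:**
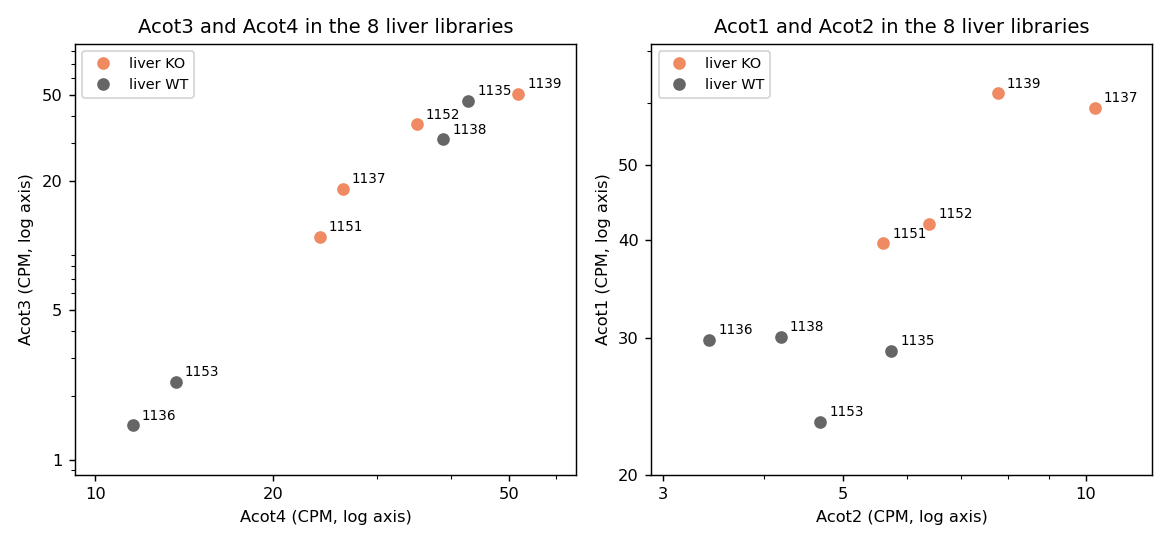
CPM in the 8 liver libraries on log axes, labelled by mouse, for Acot3 against Acot4 (left) and Acot1 against Acot2 (right); KO and WT are the labels. KO-labelled and WT livers are mixed along the Acot3 and Acot4 diagonal, with WT-1136 and WT-1153 at the bottom, while for Acot1 all KO-labelled livers, at 39.6 CPM or more, lie above the WT livers, at 30.1 CPM or less.

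Of the tested genes of these 9 marker lists, 0 passed in liver, where 0.0226% of all tested genes did, so the count says little. Hepatocyte markers summed to 108772 to 137755 CPM in KO-labelled and 102132 to 133449 CPM in WT liver. The same holds for the fatty acid lists and the cluster's neighbours, with 0 genes passed. The PPAR-alpha list had a median log2 difference of 0.44 there, with Cyp4a31 at 1.004 ± 0.22 (adjusted p = 0.296, edgeR). The genes with the smallest p in the other lists were Acsl1 (0.52 ± 0.17), Eci2 (0.32 ± 0.09), Acox2 (-0.30 ± 0.10), Entpd5 (-0.33 ± 0.10), Acot11 (-0.60 ± 0.26) and Cyp3a44 (-0.62 ± 0.20), with adjusted p from 0.454 to 0.563 (edgeR).

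Whether the label's effect differed between tissues was tested directly, as the effect in adipocytes minus that in liver. Of 10 members, 2 passed, both with the larger rise in adipocytes, where 19.1% of 14898 tested genes passed, 10.4% with a higher effect in adipocytes. They were Acot4, with a log2 difference of effects of 1.68 ± 0.53 (adjusted p = 0.0353, edgeR), and Acot9, with 0.54 ± 0.18 (adjusted p = 0.0475). Both calls were fragile. That of Acot4 was lost without mouse WT-1135, KO-1137, WT-1138, KO-1151 or KO-1152 (adjusted p 0.0538 to 0.155), and that of Acot9 without mouse WT-1135, KO-1137, WT-1138, KO-1139 or KO-1152 (adjusted p 0.118 to 0.189). With the mouse as a block, pairing the 2 libraries of each animal, Acot4 remained (1.56 ± 0.40, adjusted p = 0.0258), Acot9 was lost (adjusted p = 0.121) and Acot3 passed (3.89 ± 0.69, adjusted p = 0.00595). Without the block, Acot3 had 3.78 (adjusted p = 0.102), Acot6 1.36 (0.0551), Acot13 0.50 (0.0623), Acot1 0.73 (0.182) and Acot2 0.27 (0.509). For Acot1 and Acot2, therefore, a rise called in adipocytes and not in liver was not shown to differ between the tissues with all mice in the fit. Leaving out single mice also gained calls (edgeR). Acot1 passed without mouse KO-1137 (adjusted p = 0.0309), Acot6 without KO-1152 (0.0481) and Acot13 without WT-1136 (0.0362). The estimate for Acot5 has no meaning because liver had 1 count.

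The tissues also differed in which thioesterases they expressed. Levels here are CPM per kilobase of exon on 1 TMM scale for all 16 libraries, so that genes and tissues can be set side by side. Acot13 was first in all 4 groups, at 44.2 ± 5.45 in KO-labelled and 33.8 ± 5.36 in WT adipocytes, and at 83.1 ± 7.46 in KO-labelled and 90.1 ± 12.9 in WT liver (SD, n = 4 each). In adipocytes Acot9 was the next, at 25.3 ± 1.85 in KO-labelled and 18.9 ± 1.86 in WT. Acot2 followed in KO-labelled adipocytes, at 17.0 ± 3.75, and Acot7 in WT adipocytes, at 9.01 ± 1.78, where Acot2, at 8.56 ± 0.758, lay within its spread. In liver Acot1 was second in the KO-labelled group, at 15.3 ± 3.21, while in WT liver Acot7 (10.2 ± 1.62), Acot1 (8.53 ± 0.929), Acot8 (7.25 ± 0.404) and Acot3 (7.10 ± 7.80) followed each other without clear steps. Acot9 was near the end of the order in liver, at 1.47 ± 0.238 in KO-labelled and 1.61 ± 0.292 in WT.

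**Figure D5:**
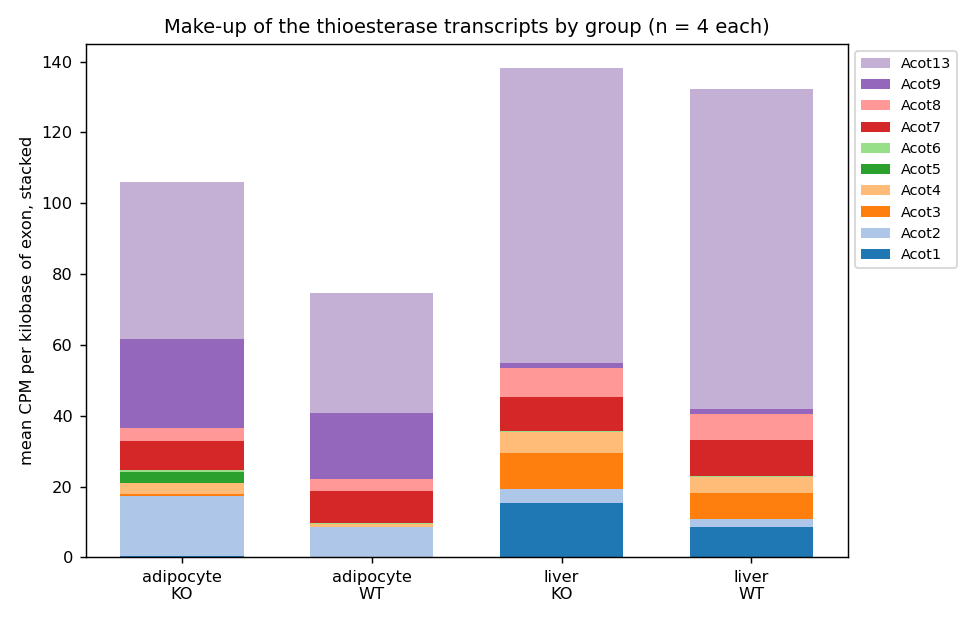
Mean CPM per kilobase of exon of the 10 genes, stacked, in the 4 groups (n = 4 libraries each, on 1 scale for both tissues; KO and WT are the labels). Acot13 is the largest block in each group, Acot9 and Acot2 fill much of the rest in KO-labelled adipocytes, at 25.3 and 17.0, and Acot1, Acot7, Acot8 and Acot3 much of the rest in liver.

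Tested between tissues within the KO-labelled mice, 10 of 10 members differed, 4 higher and 6 lower in adipocytes, where 79.8% of 14229 tested genes differed (40.4% higher and 39.3% lower). Within WT mice, 7 of 9 tested members did, 2 higher and 5 lower, where 77.6% of 14366 did (40.5% higher and 37.2% lower). Acot5 entered the test in KO-labelled mice only through adipocytes, and Acot3 entered that in WT mice only through liver. Their calls there add nothing to these counts. Without Acot3 and Acot5, 8 of 8 members differed in KO-labelled mice (3 higher, 5 lower) and 6 of 8 in WT mice (2 higher, 4 lower). The share of members called is thus near that of all genes. Acot9 was higher in adipocytes by 4.06 ± 0.12 on the log2 scale in KO-labelled and 3.53 ± 0.14 in WT mice, and Acot2 by 2.05 ± 0.21 and 1.78 ± 0.16 (each adjusted p under the threshold, edgeR). Acot1 was lower in adipocytes than in liver, with log2 differences of -5.38 ± 0.30 in KO-labelled and -6.11 ± 0.19 in WT mice. The near copies Acot1 and Acot2 thus took opposite tissues in both genotypes. Acot3 was also lower in adipocytes, by log2 differences of -4.33 ± 0.49 in KO-labelled and -8.11 ± 1.33 in WT mice (-7.29 without the WT-1135 liver), and Acot4 at -0.94 ± 0.23 and -2.62 ± 0.44. Acot8 (-1.27 ± 0.12 and -1.18 ± 0.14) and Acot13 (-0.94 ± 0.11 and -1.44 ± 0.14) were lower in adipocytes as well.

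Acot6 passed between tissues in KO-labelled mice (2.12 ± 0.26) and missed the threshold in WT mice (0.75 ± 0.39, adjusted p = 0.101, edgeR), where it passed without the WT-1135 liver (1.27, adjusted p = 0.0049). Acot7 was close to equal, at -0.26 ± 0.11 in KO-labelled (adjusted p = 0.0458) and -0.21 ± 0.16 in WT mice (adjusted p = 0.242); its sign turned with scaling by library totals, to 0.16 in KO-labelled and 0.44 in WT mice. The Acot7 call in KO-labelled mice was lost without the liver of KO-1137 or KO-1139, or the adipocytes of KO-1137, KO-1151 or KO-1152 (adjusted p 0.0647 to 0.133). Acot5 had 911 counts in KO-labelled adipocytes against 1 in KO-labelled liver, a ratio of 837 with a counting interval of 74.8 to 16580. In WT mice it had 14 counts in adipocytes and 0 in liver, a ratio whose exact lower limit was 1.28 (95%, on halved counts). Of the family's other members, Acot12, a cytosolic acetyl-CoA thioesterase, was at 158 ± 15.5 CPM in KO-labelled and 142 ± 11.5 CPM in WT liver and had 0 to 6 counts in any adipocyte library. Acot11 averaged 4.08 ± 2.27 CPM in KO-labelled and 4.02 ± 2.97 CPM in WT adipocytes (log2 difference 0.02 ± 0.51, adjusted p = 0.983, edgeR).

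The genes whose log2 profile over the 16 libraries was nearest to a member's were found by the root mean square difference after centring each gene, among genes averaging 1 CPM or more. For Acot5 they were Dtna (0.75), Lpar3 (0.77) and Ofcc1 (0.89), where Acot5's own profile has a root mean square of 2.61. For Acot3 they were Mup15 (0.99), Rarres1 (1.22) and Acnat2 (1.26; own profile 3.22), and for Acot1 Adh6-ps1 (0.44), Pemt (0.51) and Cdk18 (0.52; own profile 2.93). For Acot2 they were Acsl1, the main long-chain acyl-CoA synthetase of fat and liver (0.25), Gpd2 (0.28) and Arhgap1 (0.31; own profile 1.09). The points share tissue and label, so likeness over them is a description.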

How the data were processed

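Per the labels' protocols, adipocyte RNA was purified with a lipid tissue kit (RNA integrity above 6) and liver RNA with TRIzol (above 9), and poly-A TruSeq libraries were sequenced on a NextSeq 500. Per the submitters' processing notes, the build was mm10 and the tools were featureCounts 1.5.0, STAR 2.5.2b and bcl2fastq 2.17. The annotation, strand setting and multi-mapping treatment are not stated. The authors deposited raw counts per gene symbol, 1 library per file. Of count values from 1 to 20, 77.9% were even, so low counts are not independent molecules. Chi-square per degree of freedom between libraries of a group was 32.1 or more, so none was counted as a duplicate, and depth was not the limit for abundant genes.

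Each comparison was fitted over all genes with edgeR 4.0.16 (R 4.3.3; TMM, filterByExpr, quasi-likelihood test, two-sided, Benjamini-Hochberg 0.05), within a tissue for the label, within a label for tissue, and over 16 libraries for the difference of label effects. TMM factors were 0.898 to 0.984 in KO-labelled adipocytes, 1.02 to 1.16 in WT adipocytes and 0.970 to 1.03 in liver. SE is the log2 difference over the root of F. A count of 0 allows 3 counts, or 0.0558 to 0.105 CPM. Lengths and positions are from GENCODE M21 and promoters from RefSeq; CPM levels carry the SD. Scripts were tested on simulated data. A shared number marks 1 mouse in both tissues, per the labels; the 2 libraries' deviations from their group means had a Pearson r across genes of -0.0912 to 0.129. Alternatives were library totals, DESeq2 1.42.0, no filter, halved counts, an age covariate, 1 age only, a stromal score, all 16 libraries, each library or mouse left out, and the mouse as a block.

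All 10 members are named. From other lists, the rule takes the 3 tested genes with the smallest p in adipocytes, whether called or not, and the 1 with the smallest p in liver. The genes at the cluster's edges and liver Acot3 with Acot4 were taken up after their values were seen. Some genes that this rule takes are not reported here by name; counts include them. Members and lists were chosen with earlier results of these data known.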

Additional observations from a re-analysis of the deposited data

Results flagged for a closer look

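For Acot4 and Acot9, the test of the difference between the tissues' label effects passed its threshold, but neither call was stable. The log2 effect in adipocytes minus that in liver was 1.68 for Acot4 (adjusted p = 0.0353, edgeR) and 0.536 for Acot9 (adjusted p = 0.0475). For Acot4, the 4 KO-labelled adipocyte libraries lay above the 4 WT libraries while the liver groups overlapped. The same held for Acot9. With the mouse as a block, Acot9 was lost (adjusted p = 0.121). Each call was lost when any 1 of 5 mice was left out (adjusted p 0.0538 to 0.155 for Acot4 and 0.118 to 0.189 for Acot9, edgeR). With library totals 0 members were called (edgeR). An unadjusted p under 0.05 was then found for 3 members (edgeR). The count over all genes is not given here, so those 3 have no share to be read against.

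Acot5 in KO-labelled liver met the rule for a sample far from the others of its group, but this says nothing, since any single count among libraries at 0 meets it and a count of 0 allows up to 3 counts. KO-1151 liver stood at 0.0198 CPM, which is 1 count, and the other 3 KO-labelled livers at 0. Among 39 groups of 4 libraries examined, chance gives about 1 in 20, and this was the only one found.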

How the results depend on the processing

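In adipocytes, 7 to 8 members and 3553 to 5296 genes were called when single libraries were left out; mice of 76 days alone gave 1730 genes, and the stromal score as a covariate 0 members and 338 genes. In liver, leaving out single libraries gave 0 members and 1 to 3 genes, no filter 5 genes, DESeq2 1 member and 104 genes, an age covariate 1 member, and mice of 76 days alone 0 genes (1008 with an unadjusted p under 0.05, edgeR). For the difference of label effects, 0 to 3 members and 1758 to 2988 genes were called when single mice were left out; members numbered 0 with library totals, 1 without a filter, 6 with DESeq2, 1 with halved counts and 0 in mice of 76 days alone (666 genes); where 0 were called, 3 had an unadjusted p under 0.05 (edgeR). Between tissues, leaving out single libraries gave 9 to 10 members and 11024 to 11445 genes in KO-labelled mice. In WT mice it gave 7 to 8 members and 10769 to 11114 genes. Where a member count stands here without a count over all genes, it has no share to be read against and only shows that the call depends on the setting.

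Signs turned for members that had not passed, or barely passed, the test. With library totals, Acot8 in adipocytes was at -0.12, and Acot7 between tissues at 0.16 in KO-labelled and 0.44 in WT mice. With the stromal score, Acot7 was at 0.11 and Acot13 at -0.19 in adipocytes. In mice of 76 days alone, Acot7 in liver was at 0.10, and with single mice left out the difference of label effects ran from -0.18 to 0.17 for Acot7 and from -0.18 to 0.040 for Acot8, above 0 without WT-1136. The cause was not tested.

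Library totals gave 1293 genes higher and 3899 lower in adipocytes, against 2487 and 2362 with TMM. With the mouse as a replicate block, 10 members were called between tissues in KO-labelled and 7 in WT mice. The totals over all genes with the block are not given here. Without the block, 79.8% of tested genes differed between tissues in KO-labelled and 77.6% in WT mice. For the difference of label effects, the block gave 2 members and 2245 genes. Besides Acot3 and Acot9, named above, no member's call changed. Acot3 and Acot5 in WT adipocytes, with 2 to 8 counts per library, are limited by depth.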
